A study of Mus musculus with 96 samples.

Results

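The 9 genes Eif1ad6, Eif1ad8, Eif4a3l1, Eif4a3l2, Tdpoz1, Tdpoz3, Tdpoz4, Tmem92 and AF067061 were examined in single-cell RNA libraries of mouse metaphase II oocytes and 2-cell blastomeres. All 9 were among the 36935 gene symbols of the deposited count table. They were picked because they were known from earlier work on these same libraries to be present in one kind of library and nearly missing from the other, so their levels are given as a description and without a test. The study examined Padi6 P620A, a variant of a gene for an oocyte protein, in 96 libraries. By label, 22 were 2-cell blastomeres of genotype Padi6MatP620A/+ (the variant came from the mother), 22 were oocytes homozygous for it (Padi6P620A/P620A), 22 were Padi6+/+ 2-cell blastomeres, 22 were Padi6+/+ oocytes and 8 were negative controls. Per the labels' protocols, females of 4 to 8 weeks were given gonadotropins, eggs were freed of cumulus cells with hyaluronidase and embryos were made in vitro with sperm of males of 8 to 12 weeks. Strain, animal and litter are not given in the labels used here, so each labelled group counted as 1 sample and no p-value was computed.

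In the mouse, transcription restarts in the fertilised egg and reaches a first strong burst at the 2-cell stage. A set of genes, many of them in clusters of young copies found in rodents, is switched on there for a short time and is almost silent before and after. The Zscan4 genes, which act in telomere maintenance, and the zinc finger gene Zfp352 are well known examples. The ovulated egg is transcriptionally silent and carries stored maternal RNA, including that of Mos, the kinase that holds it in metaphase arrest.

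A library entered the description with at least 100000 counts and 4000 genes with a count, which kept 79 and left out 17. Of those kept, 39 were 2-cell-like, with Mos under 100 CPM (counts per 1000000 counts of the library) and at least 1 Zfp352 count, 39 were oocyte-like, with Mos at 100 CPM or more, and 1 fell in neither class. The classes went against the stage labels. The 2-cell-like class held 11 libraries labelled mutant 2-cell, 19 labelled mutant oocyte, 7 labelled wild-type oocyte, 2 labelled negative control and 0 labelled wild-type 2-cell. The oocyte-like class held 9 libraries labelled mutant 2-cell, 14 labelled wild-type 2-cell, 0 labelled mutant oocyte, 12 labelled wild-type oocyte and 4 labelled negative control. The genotype and stage words below therefore name labels only.

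The classes also differed in stage genes outside the rule. Padi6 lay between 56.7 and 500.04 CPM (median 196) in 2-cell-like libraries, against 511 to 11536 CPM (median 4547) in oocyte-like ones. Of 29 listed 2-cell activation genes outside the 9, 26 passed the filter on low values and 23 of these were at least 2-fold higher in 2-cell-like libraries, with 0 at least 2-fold lower. Zfp352 is 1 of these 23, and the class rule fixed its direction. All of the 23 but Tcstv1, Nat8f2 and P4ha2 were under the filter's 10 CPM in the oocyte-like pool. Those genes passed through the 2-cell-like pool, which fixed their direction. The list was also made with earlier results of these libraries known, so nothing is read from the count. Among all 9677 genes tested the shares past 2-fold were 20.9% higher and 27.8% lower. The listed genes that passed but were not 2-fold higher had ratios of 1.73 for Arg2, 1.19 for Sp110 and 1.01 for Zfp229. All 17 cumulus and granulosa markers together made up 0% to 0.0162% of counts in 2-cell-like libraries and 0.00486% to 1.12% in oocyte-like ones. In the 2-cell-like class 4 of them, Ptx3, Hsd17b1, Foxl2 and Thbs1, had no count, and in the oocyte-like class 0 were without one. Total counts ran from 503644 to 3185910 per 2-cell-like library and from 162539 to 5762563 per oocyte-like library.

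Summed, RNA of the 9 genes lay between 26.2 and 3564 CPM in the 2-cell-like libraries, with a median of 835 CPM. In the oocyte-like libraries it lay between 0 and 1.69 CPM, and 29 of 39 had no count of any of the 9. The lowest 2-cell-like library stood above the highest oocyte-like one, so the classes did not overlap. Pooled over libraries, the sum was 927 CPM in the 2-cell-like class and 0.188 CPM in the oocyte-like class, where it rested on 21 counts of 111959266. In all, 3 of the 39 2-cell-like libraries were below 100 CPM, 18 were at 1000 CPM or more and 3 at 2000 CPM or more. All 9 genes were at least 2-fold higher in the 2-cell-like pool, where 20.9% of the 9677 genes tested were, and 0 were at least 2-fold lower, where 27.8% were. Since the genes were chosen for this contrast, nothing is read from those counts. Their median log2 ratio was 11.29, against -0.08 for all genes tested, and all 9 passed the filter, which asks for 10 CPM in the pool of 1 class and a count in 50% of its libraries.

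**Figure D1:**
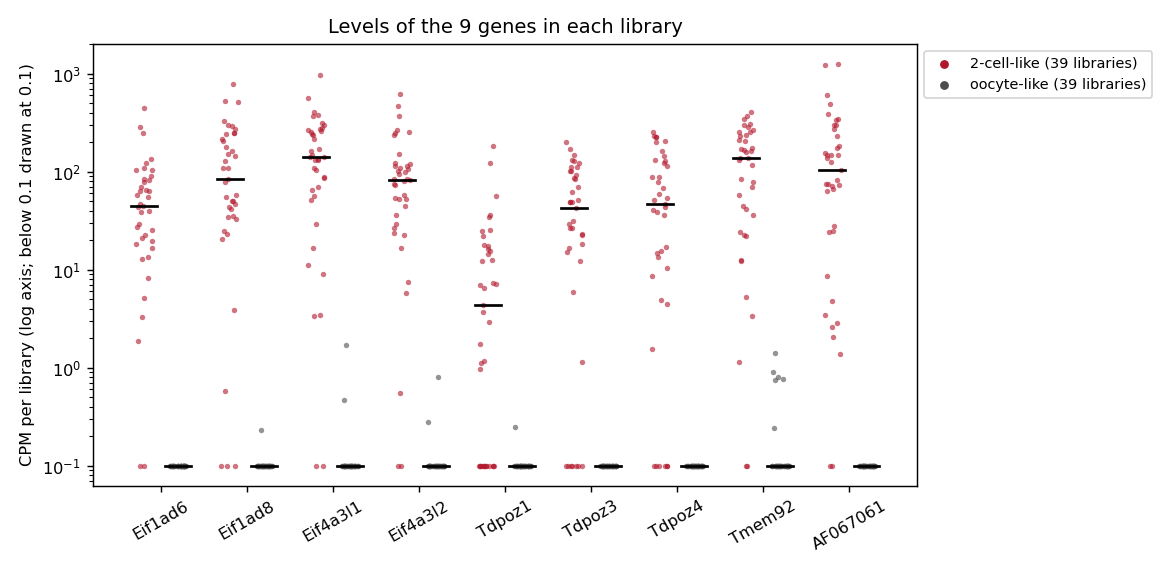
CPM of each of the 9 genes in every library (points; log axis, values below 0.1 drawn at 0.1), 2-cell-like libraries to the left and oocyte-like ones to the right of each pair, with black bars at the medians. In the oocyte-like class every median is 0 and no value exceeds 1.69 CPM, while the 2-cell-like medians lie between 4.35 and 139 CPM.

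Eif1ad6 and Eif1ad8 belong to a family of copies related to Eif1ad, which encodes a protein with a domain like that of translation initiation factor eIF1A. Eif1ad6 ran from 0 to 443 CPM in the 2-cell-like libraries with a median of 44.3 CPM, and was at 0 in each of the 39 oocyte-like libraries. Only 2 of 39 2-cell-like libraries lacked it. Its pooled level was 63.4 CPM (exact Poisson 95% interval 61.4 to 65.3) in the 2-cell-like class. That is 2364 times the floor of 3 counts over the whole oocyte-like class, which is 0.0268 CPM. The lower exact binomial limit of the ratio was 1922. Eif1ad8 ran from 0 to 781 CPM with a median of 84.8 CPM in the 2-cell-like libraries, 3 of which had none, and had 1 count in the oocyte-like class. The pooled ratio was 13863, with an exact binomial interval from 2487 to 547639. Without library 85, the oocyte-like library with that count, Eif1ad8 was at 4443 times a floor of 3 counts.

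Relatives of these genes outside the 9 had the same pattern. Of 14 other numbered Eif1ad genes in the table, 13 passed the filter and all 13 were at least 2-fold higher in the 2-cell-like pool, with a median log2 ratio of 10.05. The share over all 9677 genes tested was 20.9%. None of the 13 was above 0.840 CPM in the oocyte-like pool. All 13 thus passed through the 2-cell-like pool, which fixed their direction, and nothing is read from the count. The most abundant of the 13 were Eif1ad15 at 280 CPM in the 2-cell-like pool and 0.840 CPM in the oocyte-like pool, Eif1ad7 at 209 and 0.348 CPM, and Eif1ad16 at 152 and 0 CPM. Eif1ad itself, the gene without a number, was present in both classes, at 45.8 CPM in the 2-cell-like pool and 51.0 CPM in the oocyte-like pool. Its ratio was 0.898 (0.859 to 0.939, counting error only).

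Eif4a3l1 and Eif4a3l2 are copies of Eif4a3, the gene for the RNA helicase of the exon junction complex. Eif4a3l1 had the highest pooled level of the 9 in CPM, 182 CPM (179 to 185) in the 2-cell-like class, and ran there from 0 to 976 CPM with a median of 139 CPM. It had 2 counts in the oocyte-like class, a ratio of 10188 (2820 to 84138), which was 20269 without library 49 and 19985 without library 63, each oocyte-like with 1 of the 2 counts. Eif4a3l2 reached 116 CPM in the 2-cell-like pool, with a median of 82.9 and a highest library of 613 CPM, against 3 counts in the oocyte-like class, a ratio of 4324 (1479 to 20971), or 12682 without library 21. Each was missing from 2 of the 39 2-cell-like libraries. Eif4a3 stood at 126 CPM in the 2-cell-like pool and 100.5 CPM in the oocyte-like pool, a ratio of 1.25.

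The Tdpoz genes encode proteins with the TRAF and POZ domains of the ubiquitin ligase adaptor Spop. Tdpoz4 reached 67.2 CPM in the 2-cell-like pool and Tdpoz3 50.5 CPM, and neither had a count in any oocyte-like library. That puts them at 2508 and 1885 times the floor of 3 counts, with lower exact binomial limits of 2038 and 1532. Their medians were 46.6 and 42.3 CPM over the 2-cell-like libraries, of which 6 and 7 had none. Tdpoz1 was the scarcest of the 9, at 13.7 CPM in the 2-cell-like pool with a median of 4.35 CPM and 13 of 39 libraries at 0, against 1 count in the oocyte-like class. The ratio was 1534 (275 to 60651). Without library 96, which held that count, Tdpoz1 was at 492.8 times a floor of 3 counts. Its highest library had 184 CPM. Outside the 9, Tdpoz8 was more abundant than any of these at 162 CPM in the 2-cell-like pool, with 0 counts in the oocyte-like class. The other 6 Tdpoz genes of the table lay between 1.36 and 4.50 CPM in the 2-cell-like pool, under the filter, and also had 0 counts in the oocyte-like class.

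Tmem92 encodes a small transmembrane protein. It ran from 0 to 409 CPM in the 2-cell-like libraries with a median of 136 CPM. Its coefficient of variation of 0.832 was the lowest of the 9, though by the ratio of the upper to the lower quartile, 7.76, it was wider than Eif4a3l2 at 3.62. It also left the most counts in the oocyte-like class, 14 in 6 libraries with at most 1.43 CPM, and its pooled ratio was 1103 (657 to 2019). Without library 19, an oocyte-like library labelled wild-type oocyte that held 5 of those counts, the ratio was 1663. AF067061, a gene known by its cDNA, reached 173 CPM in the 2-cell-like pool with a median of 104 CPM and a highest library of 1251 CPM. It had no count in the oocyte-like class and was at least 6449-fold higher.

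These folds depend on where the class boundary lies. No library had Mos between 63.3 and 201 CPM. The 2-cell-like library with the most Mos, library 73 labelled mutant 2-cell, had 63.3 CPM of Mos, 222 Zfp352 counts and 1456 CPM of the 9 genes, while the oocyte-like library with the least, library 61 labelled wild-type 2-cell, had 201 CPM of Mos and 0 counts of the 9. With the boundary at 50 CPM, library 73 changed class, and the ratio was 32.3 for Eif4a3l2, 33.1 for Eif4a3l1, 46.2 for AF067061, 56.6 for Tdpoz1, 304 for Tmem92, 314 for Eif1ad8, 427 for Tdpoz4, 445 for Tdpoz3 and 3638 for Eif1ad6. The 2-cell-like library with the least Zfp352, library 29 labelled mutant oocyte, had 1 Zfp352 count and 44.7 CPM of the 9 genes. The library in neither class, labelled mutant 2-cell, had 0 counts of Mos and of Zfp352, 1 count of the 9 genes, Padi6 at 4.21 CPM and 0.631% of counts in cumulus and granulosa markers.

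Levels of different genes were compared per kilobase of the longest protein-coding transcript for the 7 genes found, by symbol or RefSeq synonym, in the GENCODE M21 annotation. In the 2-cell-like pool the order was AF067061 at 147 CPM per kilobase, Eif4a3l1 at 116, Eif4a3l2 at 85.1, Tmem92 at 67.5, Tdpoz4 at 60.4, Tdpoz3 at 46.0 and Tdpoz1 at 5.90. By library medians AF067061 and Eif4a3l1 were level, at 88.3 and 88.6 CPM per kilobase. Each of the 7 was at 0 in at least 2 of the 39 libraries, and neighbours in this order overlapped among libraries. Part of the reads of these genes cannot be assigned to a single copy, and how the authors counted reads that match several genes is not given in the sources used here. Of the 50-base stretches in its transcripts, Tdpoz3 shared 66.2% with other genes, Eif4a3l2 63.4%, Eif4a3l1 47.5%, Tdpoz1 44.4%, Tdpoz4 41.2%, AF067061 23.4% and Tmem92 1.93%. The split between Eif4a3l1 and Eif4a3l2, which share 42.9% of the stretches of Eif4a3l1, and among the Tdpoz copies is therefore uncertain. Eif1ad6 and Eif1ad8 have no entry in that annotation, so neither a length nor a shared part was computed for them.

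The start regions of the genes were compared because genes on different chromosomes had one pattern. RefSeq start regions (GRCm38.p6, 250 bases before to 50 after the start) were matched by symbol for 4 of the 9: Eif4a3l1 at chr6:136327289-136327588 on the plus strand, Tdpoz1 at chr3:93676234-93676533 on the minus strand, Tdpoz4 at chr3:93796148-93796447 on the plus strand and AF067061 at chr13:120262845-120263144 on the plus strand. That of Zfp352, at chr4:90218570-90218869 on the plus strand, is shown beside them as a 2-cell gene that is not among the 9. Capitals mark the runs CACACCTTTAA and TATAAG on either strand, which were picked after the sequences had been seen.
Eif4a3l1: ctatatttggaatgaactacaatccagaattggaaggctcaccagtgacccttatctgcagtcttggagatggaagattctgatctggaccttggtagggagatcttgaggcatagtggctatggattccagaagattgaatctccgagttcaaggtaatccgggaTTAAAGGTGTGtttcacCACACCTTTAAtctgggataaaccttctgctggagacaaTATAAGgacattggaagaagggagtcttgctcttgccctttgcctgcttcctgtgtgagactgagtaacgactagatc
Tdpoz1: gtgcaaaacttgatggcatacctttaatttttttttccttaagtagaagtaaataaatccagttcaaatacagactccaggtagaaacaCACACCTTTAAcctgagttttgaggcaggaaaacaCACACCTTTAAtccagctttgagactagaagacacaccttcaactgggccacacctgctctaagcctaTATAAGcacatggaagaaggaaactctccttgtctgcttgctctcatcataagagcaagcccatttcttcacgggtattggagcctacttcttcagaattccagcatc
AF067061: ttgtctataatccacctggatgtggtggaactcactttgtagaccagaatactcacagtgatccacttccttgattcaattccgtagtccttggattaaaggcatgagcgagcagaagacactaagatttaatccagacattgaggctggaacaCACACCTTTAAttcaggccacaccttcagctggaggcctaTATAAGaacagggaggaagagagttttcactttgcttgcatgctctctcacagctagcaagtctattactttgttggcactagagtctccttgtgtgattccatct
Tdpoz4: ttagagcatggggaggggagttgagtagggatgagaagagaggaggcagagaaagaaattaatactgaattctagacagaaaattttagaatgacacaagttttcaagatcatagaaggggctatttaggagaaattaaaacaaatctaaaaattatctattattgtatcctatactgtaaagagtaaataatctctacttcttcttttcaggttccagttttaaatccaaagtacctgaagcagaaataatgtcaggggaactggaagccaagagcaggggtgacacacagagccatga
Zfp352: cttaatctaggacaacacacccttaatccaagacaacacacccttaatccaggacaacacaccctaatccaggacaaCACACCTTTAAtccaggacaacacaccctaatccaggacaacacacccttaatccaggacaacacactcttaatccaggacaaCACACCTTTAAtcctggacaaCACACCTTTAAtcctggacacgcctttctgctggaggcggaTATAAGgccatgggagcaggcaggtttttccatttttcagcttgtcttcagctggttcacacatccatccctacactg
The run CACACCTTTAA stood in 3 of the 4 windows. In Eif4a3l1 it lay at -67 to -57 from the start and, on the other strand, at -84 to -74. In Tdpoz1 it lay at -161 to -151 and at -126 to -116, and in AF067061 at -96 to -86. The run TATAAG lay downstream of it in all 3, at -28 to -23 in Eif4a3l1, -58 to -53 in Tdpoz1 and -56 to -51 in AF067061. The window of Tdpoz4 held neither run, but there the annotated start falls on the A of an ATG. Whether that window covers the start of transcription was not tested, so nothing is read from its lack of the runs.

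Over all 32851 RefSeq start regions, 64 held CACACCTTTAA on either strand, or 0.195%, and 7.43% held TATAAG on either strand. Zfp352 held CACACCTTTAA 3 times, at -173 to -163, -90 to -80 and -69 to -59. Of the 23 other 2-cell activation genes with a start region in the table, 3 held it, namely Zfp352, Sp110 and Gm4340. Leaving out the 9 genes, 13 genes with the run passed the filter on low values, and 10 of them (76.9%) were at least 2-fold higher in the 2-cell-like pool, beside 1484 of 7451 (19.9%) of all genes with a start region that passed. For TATAAG the count was 95 of 398 (23.9%), near the share of all genes. Zfp352 is 1 of the 10 genes with CACACCTTTAA and was part of the class rule. The others were Tdpoz8, Gm4340, Gm12789, Esp24, Alppl2, Pramel17, Gm4567, Pemt and Zbed3, with Alppl2, a placental-like alkaline phosphatase, at 94.3 CPM in the 2-cell-like pool and 2.06 CPM in the oocyte-like pool. Sgk1, a kinase gene, went the other way at 17.6 CPM in the 2-cell-like pool and 171 CPM in the oocyte-like pool. The run was picked from start regions of genes chosen for this contrast. Tdpoz8 is a relative of the 9, and Gm4340 was on the list of 2-cell genes. Of the 10, all but Zbed3 were at 5.13 CPM or less in the oocyte-like pool. They passed through the 2-cell-like pool, which fixed their direction, so nothing is read from the 76.9%. These are matches of letters, and binding was not measured.

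The start region of Eif4a3l1 shared a longer stretch with other genes. The run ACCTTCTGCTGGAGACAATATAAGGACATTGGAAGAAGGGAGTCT, which in Eif4a3l1 lies at -46 to -2, was in the start regions of 18 genes in all, Sp110 and Gm4340 among them. Of these 18, 6 passed the filter, and leaving out Eif4a3l1 itself 3 of the other 5 were at least 2-fold higher in the 2-cell-like pool, beside 19.9% of all genes with a start region. Sgk1, named above as lower, carries the run too, and Sp110 was not 2-fold higher. Gm4340, Pramel17, Sgk1 and Sp110 also hold CACACCTTTAA, so this count repeats part of the one above. Gm4340 and Pramel17 passed the filter through the 2-cell-like pool. Pramel17 stood at 84.3 CPM in the 2-cell-like pool and 2.06 CPM in the oocyte-like pool, and Arih2 at 29.0 and 14.0 CPM. GGATTA, a homeobox motif of the Otx type, was on either strand in 3 of the 4 windows and in 7.06% of all, and partly overlaps CACACCTTTAA where that run is followed by TCC. Of the 509 other genes with GGATTA that passed the filter, 128 (25.1%) were at least 2-fold higher in the 2-cell-like pool, near the 19.9% of all.

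Among the 39 2-cell-like libraries, 25 had a count of each of the 9 genes, 30 had at least 8 and every library had at least 4. With each library thinned to 100000 counts, Eif4a3l1 and Eif4a3l2 were each found in 34 of 39 2-cell-like libraries, Tmem92 and Eif1ad8 in 33, AF067061 in 32, Eif1ad6 and Tdpoz3 in 30, Tdpoz4 in 29 and Tdpoz1 in 16. In the thinned oocyte-like libraries Tdpoz1 was found in 1 of 39 and the other 8 genes in 0 of 39 (exact binomial 95% interval 0% to 9.03%). The genes were spread widely, though by the median little more than other genes of this class. Their coefficients of variation over the 2-cell-like libraries ran from 0.832 for Tmem92 to 2.097 for Tdpoz1, with a median of 1.12, beside a median of 0.989 over 7954 genes that passed the filter in this class. Over the 6262 of these within the range of pooled levels of the 9, the median was 1.01.

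**Figure D2:**
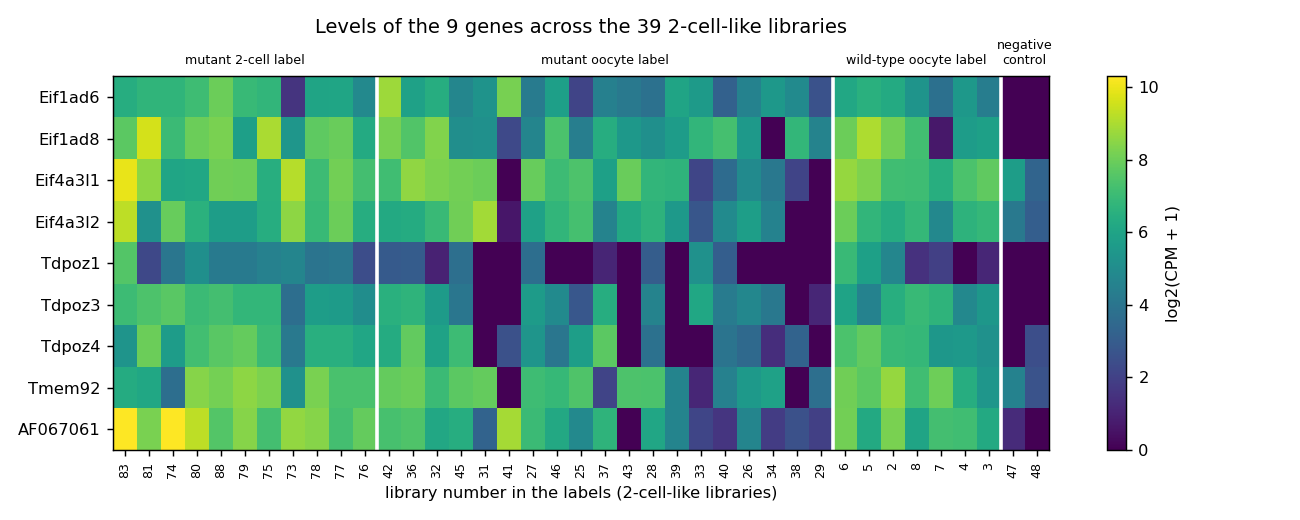
Levels of the 9 genes, as log2(CPM + 1), in each of the 39 2-cell-like libraries, grouped by label and ordered within a label by the sum of the 9. Libraries 31, 39, 43 and 47 have all 3 Tdpoz genes at 0, and library 41 has high Eif1ad6 and AF067061 with most other genes at or near 0.

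Single libraries could have one family and lack another. The Eif4a3l pair made up the largest share of the sum in 21 of 39 libraries and the Eif1ad pair in 9, with AF067061 and Tmem92 largest in 4 each and the 3 Tdpoz genes in 1. Over libraries the Eif4a3l share had a median of 28.4% and ran from 0% to 73.9%, and the Eif1ad share had a median of 21.0% and ran from 0% to 89.2%. In 4 libraries, picked out after their values had been seen, all 3 Tdpoz genes were at 0 while the Eif4a3l pair was at 721 CPM (library 31), 318 CPM (library 43), 147 CPM (library 39) and 68.3 CPM (library 47). Library 41 was another unlike the rest: it had 288 CPM of Eif1ad6 and 484 CPM of AF067061, with Eif4a3l1, Tdpoz1, Tdpoz3 and Tmem92 at 0. That library had the fewest genes with a count of its class, 4328.

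The genes varied together when all 2-cell-like libraries were taken at once. Over the 36 pairs, Spearman's rho of CPM across the 39 libraries ran from 0.138 (Eif1ad6 with Eif4a3l2) to 0.704 (Tdpoz3 with Tdpoz4), with a median of 0.451, and 17 pairs were at 0.5 or more. The median over all pairs of genes that passed the filter was 0.0327, and 228806 of those 31629081 pairs were at 0.5 or more. The 5 pairs within a family had a median rho of 0.693 and the 31 pairs between families 0.435. Pearson's r of log2(CPM + 1) had a median of 0.481 over the 36 pairs and was 0.882 for Eif4a3l1 with Eif4a3l2, which share sequence. By family sums, the Tdpoz genes went with AF067061 (rho 0.701) and the Eif1ad pair (0.665), and the Eif1ad and Eif4a3l pairs went together least (0.251). These libraries share labels, depth and a fixed total, and the coefficients are a description.

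**Figure D3:**
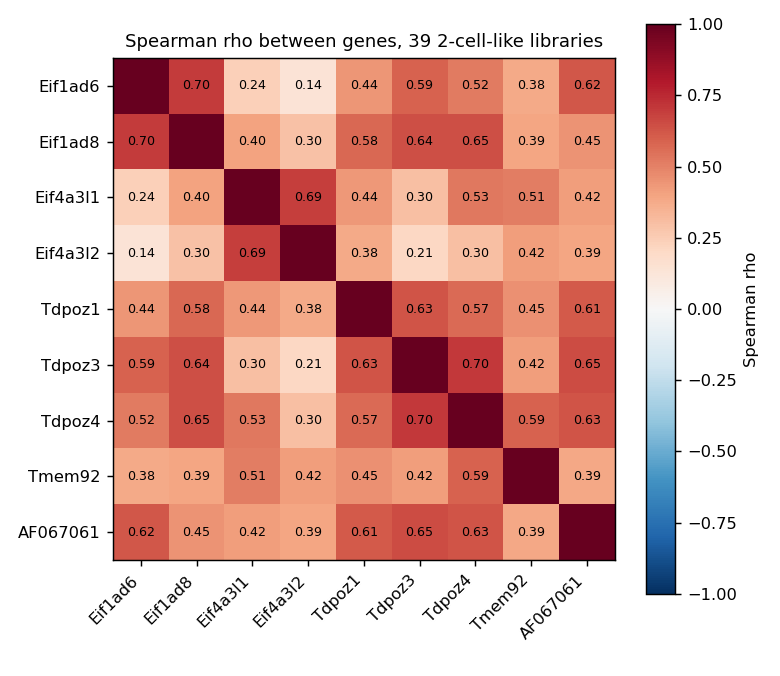
Spearman's rho between each 2 of the 9 genes over the 39 2-cell-like libraries (colour and printed value). All 36 values are above 0, from 0.138 to 0.704, with the highest ones inside the Eif1ad, Eif4a3l and Tdpoz families. Over all genes that passed the filter, 17925160 of 31629081 pairs are above 0.

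Within labels the median rho over the 36 pairs was lower than over the pool, at -0.0136 among the 11 libraries labelled mutant 2-cell, 0.27 among the 19 labelled mutant oocyte and 0.304 among the 7 labelled wild-type oocyte. For pairs within a family the medians, 0.693 over the pool, were 0.218 among libraries labelled mutant 2-cell, 0.614 among those labelled mutant oocyte and 0.714 among those labelled wild-type oocyte. Thus the relation over the pool did not hold within the label mutant 2-cell, where every library had a high sum. Within the label mutant oocyte, Tmem92 followed Eif4a3l1 with a rho of 0.866, above its 0.510 over the pool, against -0.336 within the label mutant 2-cell and -0.0357 within the label wild-type oocyte. That pair was picked after the values had been seen. Within the label mutant oocyte, Eif4a3l2 had a rho of 0.836 with Tmem92 and 0.870 with Eif4a3l1.

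The sum of the 9 followed other 2-cell genes. Its rho over the 39 libraries was 0.809 with the summed level of the 5 Zscan4 genes and 0.670 with Zfp352. Within labels the value with Zscan4 was 0.582 for mutant 2-cell, 0.667 for mutant oocyte and 0.214 for wild-type oocyte. That with Zfp352 was 0.0182 for mutant 2-cell, 0.354 for mutant oocyte and 0.679 for wild-type oocyte, so it did not hold within the label mutant 2-cell. Over the 39 libraries, with total counts rho was -0.297, with genes detected -0.276, with the mitochondrial share 0.212, with the cumulus and granulosa share -0.429, with the summed oocyte markers 0.456 and with Padi6 -0.207. Within labels several of these changed sign. For total counts rho was 0.309 for mutant 2-cell, 0.147 for mutant oocyte and -0.714 for wild-type oocyte, and for the cumulus and granulosa share 0.0545, -0.423 and 0.180 in the same order of labels. The part of these measures in the sum was not tested.

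**Figure D4:**
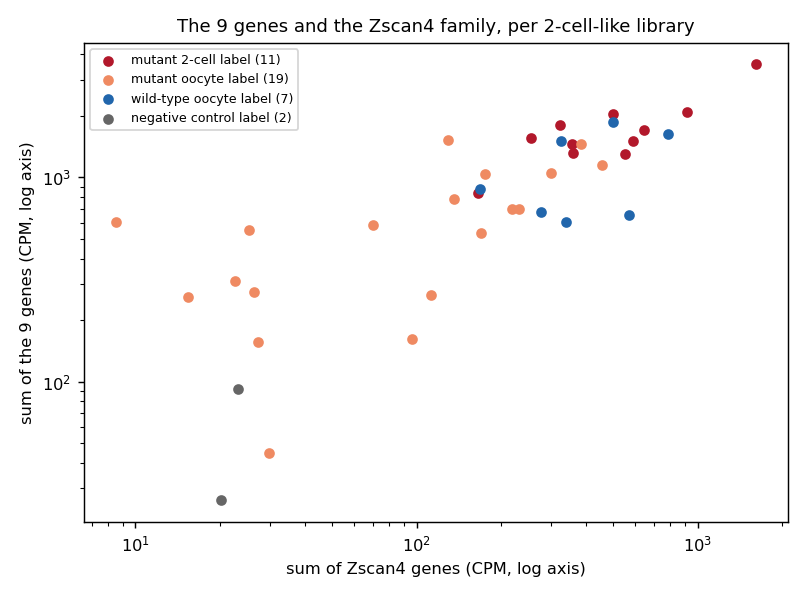
Summed CPM of the 9 genes (vertical, log axis) against summed CPM of the 5 Zscan4 genes (horizontal, log axis) in each 2-cell-like library, coloured by label. Spearman's rho is 0.809 over the 39 libraries, and the 2 libraries labelled negative control and library 29 lie lowest, below 100 CPM of the 9 genes.

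Of 7945 genes ranked by rho with the mean z-score of the 9, the 8 with a proper gene name that stood highest were Eif1ad14 (rho 0.858), Tdpoz8 (0.848), Ddit4l (0.836), Snrpc (0.827), Guca1a (0.825), Bud31 (0.821), Zscan4d (0.814) and Spopfm3 (0.813), each over 39 libraries. The first belong to the families of the 9. Ddit4l, an inhibitor of mTOR signalling, was at 123 CPM in the 2-cell-like pool and 2.53 CPM in the oocyte-like pool. Snrpc, a subunit of the U1 spliceosomal particle, was at 49.4 CPM in the 2-cell-like pool and 6.91 CPM in the oocyte-like pool. Bud31, another splicing factor, had 90.7 CPM in the 2-cell-like pool against 41.6 CPM in the oocyte-like pool, so a gene could follow the 9 among 2-cell-like libraries and still be well represented in oocyte-like ones. The 26 other 2-cell activation genes ranked had a median rho of 0.618 and ran from -0.182 to 0.820, beside a median of 0.00911 for all genes ranked. That list holds Zfp352 and was made with earlier results of these libraries known, so nothing is read from its median.

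The labels inside the 2-cell-like class differed in the sum of the 9. Libraries labelled mutant 2-cell had a median of 1564 CPM and ran from 835 to 3564 CPM. Libraries labelled mutant oocyte had a median of 583 CPM and ran from 44.7 to 1518 CPM. Libraries labelled wild-type oocyte had a median of 872 CPM and ran from 604 to 1864 CPM, and the 2 labelled negative control had 26.2 and 92.5 CPM. The 3 larger groups overlapped, and the libraries labelled negative control were below all but 1 of the others.

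**Figure D5:**
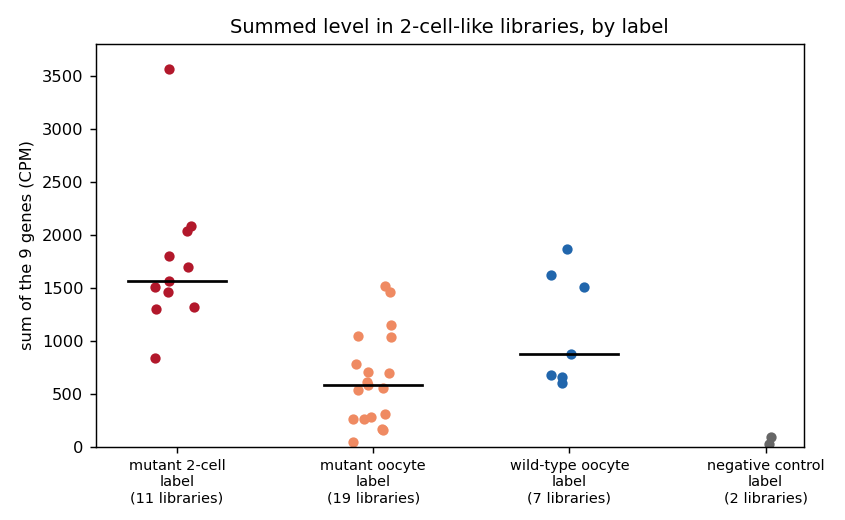
Sum of the 9 genes in CPM in each 2-cell-like library by label, with black bars at the medians of the groups with more than 2 libraries. The 11 libraries labelled mutant 2-cell lie between 835 and 3564 CPM, and 6 of them stand above all 19 labelled mutant oocyte, whose highest is 1518 CPM.

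Between the labels mutant 2-cell and mutant oocyte, the pooled sum was 1773 CPM in libraries labelled mutant 2-cell and 657 CPM in those labelled mutant oocyte, a ratio of 2.70 (2.65 to 2.74, counting error only). At least 2-fold higher were 6 of the 9 genes, where 18.4% of 8765 genes were, and 0 were at least 2-fold lower, where 12.3% were. The members' median log2 ratio was 1.43, against 0.10 over all genes. The largest were Tdpoz1, with 33.4 CPM in libraries labelled mutant 2-cell and 4.22 CPM in those labelled mutant oocyte (ratio 7.91), and AF067061, with 499 and 72.7 CPM (ratio 6.86). Tdpoz3 followed at 111 and 26.2 CPM (4.22), then Tdpoz4 at 122 and 43.4 CPM (2.82), Eif1ad8 at 232 and 86.1 CPM (2.70) and Eif4a3l1 at 298 and 147 CPM (2.03). Eif1ad6, Eif4a3l2 and Tmem92 had ratios of 1.84, 1.74 and 1.63. Of the 6, Tdpoz1 was under the filter's 10 CPM in libraries labelled mutant oocyte. It passed through those labelled mutant 2-cell, which fixed its direction, so nothing is read from its place among the 6. For AF067061, libraries labelled mutant 2-cell ran from 147 to 1251 CPM with a median of 339 CPM, against 0 to 484 CPM with a median of 27.6 CPM in those labelled mutant oocyte, and 3 of 11 were above all of those labelled mutant oocyte. Without library 83, labelled mutant 2-cell, the ratio of Tdpoz1 was 3.91 and that of Eif4a3l1 1.51, under 2-fold. The 2 groups carry the same maternal variant by label and different stage words. Zscan4 genes differed with the 9: their sum had a median of 499.6 CPM in libraries labelled mutant 2-cell and 112 CPM in those labelled mutant oocyte. Other measures differed between these libraries too. The cumulus and granulosa share had a median of 0.00101% in libraries labelled mutant 2-cell and 0.00409% in those labelled mutant oocyte, the oocyte markers 1.25% and 0.958%, and total counts 1290686 and 1939301. Their part in the difference was not tested.

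Between the labels mutant oocyte and wild-type oocyte the difference was smaller and ran the other way for most of the 9. The pooled sum was 657 CPM in libraries labelled mutant oocyte and 1000.3 CPM in those labelled wild-type oocyte, a ratio of 0.657 (0.643 to 0.672, counting error only), and 10 of 19 libraries labelled mutant oocyte were below all 7 labelled wild-type oocyte. At least 2-fold lower were 3 of the 9 genes, where 10.3% of 8485 genes were, and 0 were at least 2-fold higher, where 19.1% were. The 3 were the Tdpoz genes. Tdpoz1 was at 4.22 CPM in libraries labelled mutant oocyte and 23.2 CPM in those labelled wild-type oocyte (ratio 0.182), Tdpoz3 at 26.2 and 68.1 CPM (0.385) and Tdpoz4 at 43.4 and 93.7 CPM (0.463). Tdpoz1 passed the filter only through libraries labelled wild-type oocyte, which fixed its direction, so nothing is read from its place among the 3. Per library, Tdpoz3 ran from 0 to 102 CPM with a median of 18.4 CPM in those labelled mutant oocyte, and from 22.3 to 122 CPM with a median of 62.5 CPM in those labelled wild-type oocyte, so the groups overlapped. Without library 6, labelled wild-type oocyte, the Tdpoz1 ratio was 0.462 and that of Tdpoz4 0.517, no longer 2-fold.

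By pooled level the other 6 genes differed by under 2-fold between these labels. AF067061 had a ratio of 0.514, Eif1ad8 0.587, Tmem92 0.665, Eif4a3l1 0.756 and Eif4a3l2 0.920, while Eif1ad6 had 1.29. Library 42, labelled mutant oocyte, had 443 CPM of Eif1ad6. Without that library the ratio was 0.990, and the medians were 29.3 CPM in libraries labelled mutant oocyte and 43.8 CPM in those labelled wild-type oocyte. AF067061 went to 0.357 without library 41, labelled mutant oocyte. By medians over libraries, each with 1 CPM added, AF067061 had a ratio of 0.204 and Eif1ad8 0.329, both under 0.5, so the set of genes past 2-fold depends on the summary used. Total counts had a median of 1939301 in libraries labelled mutant oocyte and 1716372 in those labelled wild-type oocyte, the cumulus and granulosa share 0.00409% and 0.00174%, and the oocyte markers 0.958% and 1.34%, and their part was not tested. The members' median log2 ratio was -0.77, against 0.10 over all genes. Zscan4 genes moved the same way, with a median of 112 CPM in libraries labelled mutant oocyte and 339 CPM in those labelled wild-type oocyte. Both comparisons use the libraries labelled mutant oocyte. The labels give no animal, litter or collection time, so genotype and any of these cannot be told apart here.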

How the data were processed

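The deposited table holds raw counts per gene and library, whole numbers that the authors did not normalize. Reads were trimmed with Trim Galore 0.4.4 and aligned with HISAT2 2.1.0 to GRCm39, per the submitters' processing notes, which also name DESeq2 without a version. Counting settings are not given in the sources used here. Per the labels' protocols, polyadenylated RNA was copied with template switching and amplified over 15 PCR cycles, with no molecular identifiers named, so intervals and floors cover counting error only. Rows that repeated a symbol (48) were summed, which left 36935 of 36983 rows.

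The members, lists and class rule were chosen with earlier results of these data known. Levels are counts per 1000000, pooled over a class as summed counts over summed totals, with exact Poisson or conditional binomial 95% intervals. For a class at 0 the ratio was taken against 3 counts in its pool. All 9 members are named, with relatives by symbol, the 8 genes most alike by rho, the class genes and the listed 2-cell genes of highest level. Named outside that rule, and chosen after their values were seen, are single libraries and the pair Tmem92 and Eif4a3l1 within labels. So are the genes found by promoter sequence, their motifs, and the 3 listed 2-cell genes that were not 2-fold higher. No doublet caller was run on these libraries of 1 picked cell each. Promoters came from RefSeq (GRCm38.p6), and transcript lengths and shared 50-base stretches from GENCODE M21. The calculations were tested on simulated data and run in Python 3.11.15 with pandas 2.3.3, numpy 2.4.6 and scipy 1.17.1; alternative scalings used edgeR 4.0.16 and DESeq2 1.42.0. Alternative filters, class boundaries, scalings, summaries and coefficients were run, besides leaving out each library in turn. Not every result was run under every alternative.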

Additional observations from a re-analysis of the deposited data

Results flagged for a closer look

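Eif4a3l2 stood at 251 CPM in library 6, labelled wild-type oocyte, far from the other 6 2-cell-like libraries of that label. Of 10 groups of values examined in this way, chance alone flags about 1 in 20.

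RNA of the 9 genes was also present in 3 libraries that were left out for too few genes with a count. Library 30, labelled mutant oocyte, had 5011 CPM of the 9 genes from 3326 counts and 3042 genes. Library 82, labelled mutant 2-cell, had 1973 CPM from 1547 counts and 2486 genes, with 0 counts of Zfp352 and of Padi6. Library 1, labelled wild-type oocyte, had 431 CPM from 1161 counts and 3775 genes, with Zfp352 at 375 CPM. The highest of the 39 oocyte-like libraries had 1.69 CPM.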

How the results depend on the processing

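All 9 genes stayed at least 2-fold higher in the 2-cell-like class under every alternative run, leaving out each library included (9 to 9). The genes were chosen for this contrast, so nothing is read from that count. The folds themselves depended strongly on what was set against the nearly empty oocyte-like class. Pools used the level there or a floor of 3 counts, while medians and means had 1 CPM added. Eif1ad6 had a mean of 69.4 CPM in the 2-cell-like class, beside 63.4 CPM pooled. Its fold was 70.4 by means with 1 CPM added and 2364 by the pool. The part of the summary alone was not tested. By medians over libraries, each with 1 CPM added, the folds ran from 5.35 for Tdpoz1 to 140 for Eif4a3l1. By means, also with 1 CPM added, the folds ran from 17.7 for Tdpoz1 to 198 for AF067061. The median sum in the 2-cell-like class lay between 808 and 854 CPM and the median rho between 0.423 and 0.515 with 1 library left out. Both moved further under the other alternatives. The median sum ran from 736 CPM with DESeq2 size factors to 1037 CPM with Zfp352 of at least 10 CPM required. The median rho ran from 0.402 with libraries labelled negative control left out to 0.583 with a stricter library filter. With 1 library left out, between the labels mutant 2-cell and mutant oocyte, 5 to 7 genes were at least 2-fold higher and the log2 ratio of the sum was 1.26 to 1.55; the other alternatives gave 5 to 8 genes and 1.24 to 1.45. With 1 library left out, between the labels mutant oocyte and wild-type oocyte, 2 to 4 were at least 2-fold lower and it was -0.74 to -0.42; the other alternatives gave 3 to 5 genes and -0.80 to -0.55. The 5 came with medians over libraries in place of pools. Over all genes, 2011 to 2093 were higher and 2462 to 2733 lower with 1 library left out, and 10196 and 6534 with no filter on low values, where more genes are counted. With libraries over 0.1% somatic markers left out, 2354 were higher and 1975 lower, against 2026 and 2691 with them. TMM moved the median log2 ratio of all genes by -0.22 and DESeq2 size factors by -0.13. No paired analysis was possible because each library carries its own number and the labels share none between groups. Tdpoz1 had a count in 26 of 39 2-cell-like libraries and in 16 of them after thinning, the fewest of the 9 genes both times. Its rho with total counts over these libraries was -0.437, and the 13 without a count of it had at least 1235174 counts each. The part of depth in its level was not tested.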
